A study of Gossypium hirsutum with 2 samples.

Results

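Of the 2183 promoter peaks in the longer of 2 deposited lists for the cotton repressor GhD53, 276 had their centre within 500 bp upstream of the start site of an annotated gene, and these lay at 276 different genes. They were chosen by position alone. A peak entered when the authors' signed distance from its centre to the gene's start site was between -500 and -1 bp, and it was dropped when the gene's best protein hit was marked as encoded in a chloroplast or mitochondrial genome. The window held 290 peaks before 14 were dropped for that reason. The same exclusion left 2134 of the 2183 peaks, at 2080 genes, against which the 276 were set.

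The peaks came from DNA affinity purification sequencing (DAP-seq), which expresses a protein with a tag outside the cell, offers it fragments of purified genomic DNA and sequences those it retains. A purified (IP) library with GhD53 was compared with an input library, both made from genomic DNA of Gossypium hirsutum (upland cotton) fiber, with 1 library for each fraction. The DNA carried no chromatin, and no purification without GhD53 was among the libraries analysed here. With 1 library per fraction there was no replicate error, so no difference between groups of peaks was tested, and the Wilson 95% intervals on shares cover counting error only. A second, shorter list from the same pair of libraries was deposited as well. Whether a peak was also in it served as a further readout, which is not independent of pileup and q-value.

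D53 of rice and its relatives in Arabidopsis are repressors in the signalling pathway of strigolactones, hormones that restrain shoot branching and act in other organs. The hormone is bound by the receptor D14, and the repressor is then marked by an F-box protein of the D3/MAX2 type and degraded. Such repressors carry a motif that recruits TOPLESS corepressors, and in Arabidopsis a relative was also found to bind DNA. The stretch just upstream of a start site holds the core promoter, where the general transcription machinery assembles, together with many of the elements that transcription factors bind in plants.

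Start-proximal peaks thinned out toward the gene. The 100 bp next to the start site held 18 peaks, and the following steps of 100 bp held 44, 63, 74 and 77. The median distance of the peak centre was 318.5 bp, with quartiles of 210.5 and 410 bp. For 17 peaks the interval itself contained the start site, and the farthest of their centres was 105 bp upstream. No summit lay at or downstream of the start site, 265 summits were within the window, and 11 were beyond 500 bp, since the summit differed from the centre by a median of 24 bp. Genes on the plus strand had 130 of the peaks and genes on the minus strand 146.

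**Figure D1:**
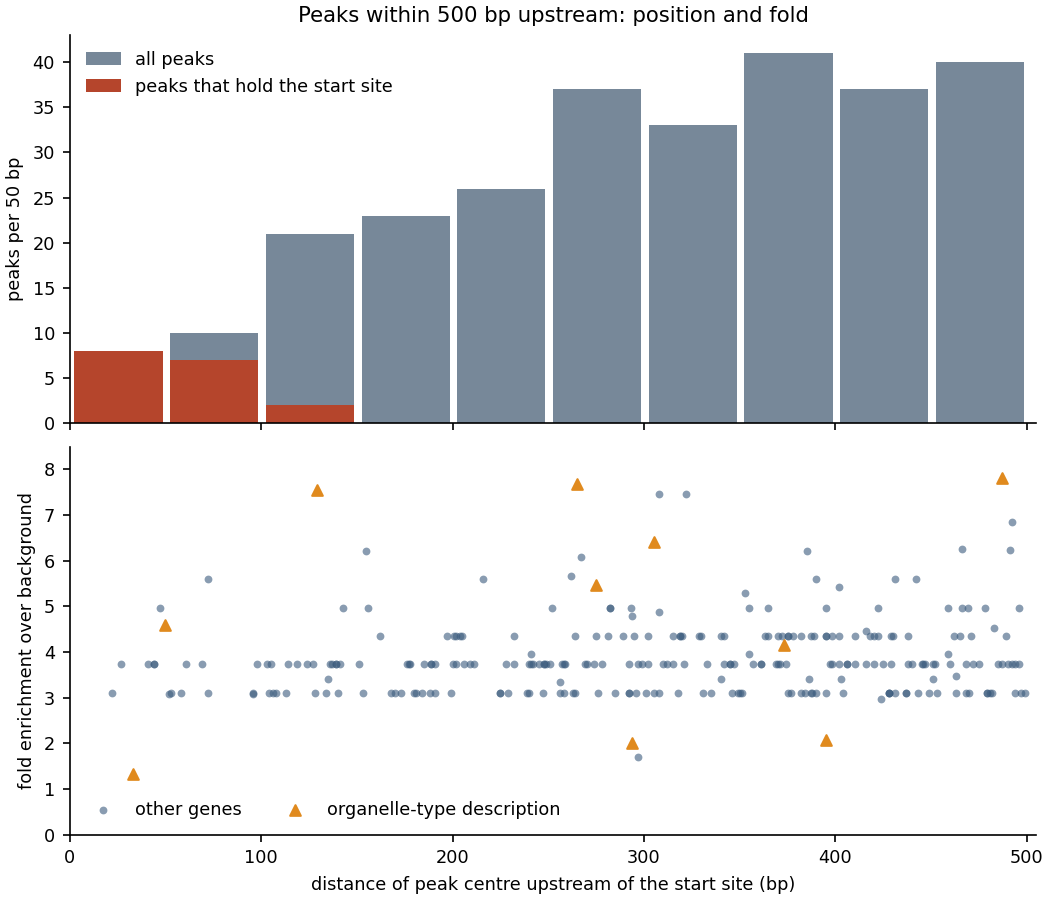
The upper panel shows the number of peaks per 50 bp against the distance of the peak centre upstream of the start site (bp), with peaks that contain the start site in red; the lower panel shows each peak's fold enrichment over its background, with triangles for genes with organelle-type descriptions. Counts rise from 8 peaks in the nearest 50 bp to 40 in the farthest, and most points fall on a few horizontal levels set by the pileup.

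Just inside the far edge stood GH_D02G0867 at 499 bp, with a pileup of 4 and a fold of 3.11. GH_D12G0572, annotated as an ABC transporter, stood just outside it at 501 bp, with a pileup of 5 and a fold of 3.73. At the near edge the closest upstream peak was 22 bp from GH_D04G2043, which encodes an ankyrin repeat protein, with a pileup of 4 and a fold of 3.11. The peak of GH_D06G1671, coding for the small GTPase RABF2a of endosomal traffic, had its centre 1 bp downstream with the same pileup and was therefore not included. The nearest peaks on either side of each edge were thus of like height. Slightly farther from the near edge stood tall peaks. GH_A12G0231 had 132 fragments at 33 bp upstream and GH_D11G0685 had 133 at 19 bp downstream.

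Most start-proximal peaks were small. The pileup, the number of IP fragments stacked at the summit, had a median of 5, as it did over the other 1858 peaks of the longer list. It was between 4 and 8 at 254 of the 276 peaks (92.0%, interval 88.2 to 94.7%), against 89.9% of the others. A pileup of 4 carries an exact Poisson 95% interval of 1.09 to 10.2 fragments and a pileup of 8 one of 3.45 to 15.8, so single peaks in this range cannot be ranked against each other by height, and "highest" or "lowest" refers to the deposited values alone. The lowest pileup in the list, 4, was found at 75 start-proximal peaks (27.2%, 22.3 to 32.7%) and at 19.2% of the other peaks (17.4 to 21.0%). Peaks were a median of 167 bp long (interval of the median 160 to 172) where the others were 175 bp (172 to 177).

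The fold enrichment is the ratio of the pileup plus 1 to the background plus 1, so where the background takes its lowest value it carries no information beyond the pileup. That lowest background, 0.608 fragments, lay under 242 of the 276 peaks (87.7%). At it a pileup of 4 gives a fold of 3.11, a pileup of 5 gives 3.73, 6 gives 4.35, 7 gives 4.98 and 8 gives 5.60. The median fold was 3.73 in the window, in the other peaks, and in the peaks 1500 to 2000 bp upstream. A fold of 5 or more was reached by 21 start-proximal peaks (7.61%, 5.03 to 11.4%), beside 11.8% of the 2134 peaks. The highest fold in the window was 7.81 and outside it 25.5.

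A smaller share of the start-proximal peaks than of the rest was found in the shorter list. It was 71 of 276 (25.7%, 20.9 to 31.2%), where all 2134 peaks gave 33.6% and the other peaks 34.7% (32.6 to 36.9%). By steps of 500 bp from the start site the share was 25.7%, 30.0%, 32.1% and 39.8%. Within the window it was lowest in the inner 200 bp, with 3 of 18 and 6 of 44 peaks, and reached 27 of 74 between 301 and 400 bp. A q-value of 0.05 or lower was given to 196 of the 276 peaks (71.0%, 65.4 to 76.0%), beside 78.5% of all 2134 and 79.7% of the others.

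**Figure D2:**
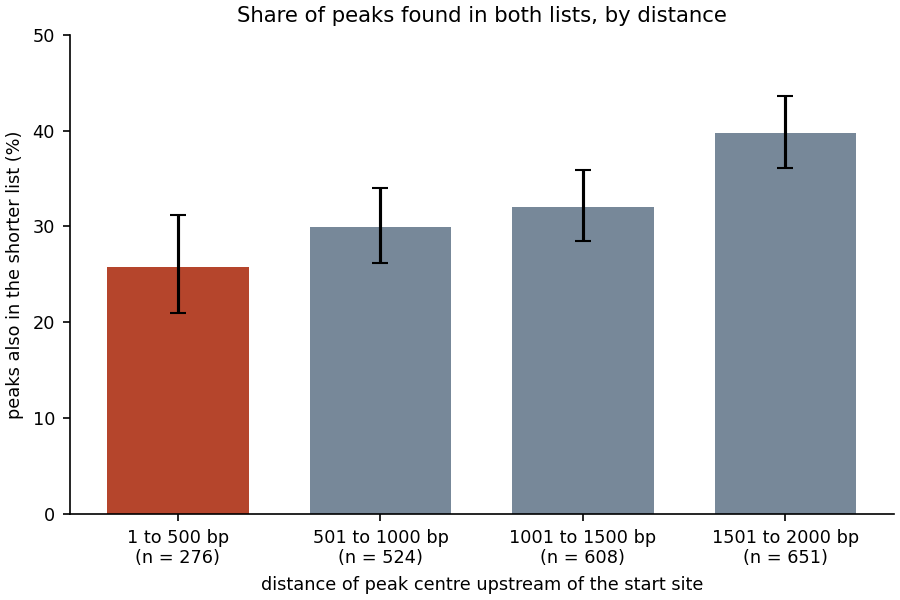
Bars show the percentage of longer-list peaks also found in the shorter list for 4 steps of distance upstream of the start site, with Wilson 95% intervals and the number of peaks below each bar; the red bar is the window described here. The share is 25.7% next to the start site and 39.8% in the farthest step.

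Compared at equal pileup, the shares in and outside the window were close for the low peaks that make up most of the window. None of the 75 start-proximal peaks with a pileup of 4 was in the shorter list, nor was any of the 356 others of that height. At a pileup of 5 it was 12 of 102 (11.8%) against 90 of 662 (13.6%), and at 6 it was 21 of 51 (41.2%) against 161 of 393 (41.0%). At 7 it was 13 of 19 (68.4%) against 136 of 170 (80%). At 8 the counts were 7 of 7 and 81 of 89. At 5 and 6 fragments the peaks of the window were shared about as often as the rest, and at 7 less often. A pileup of 4, which the shorter list did not contain, was more frequent in the window. Whether this accounts for the lower share was not tested. At the lowest background a pileup of 4 had a −log10 q of 0.917, short of a q-value of 0.05. All 74 window peaks of the shorter list reached that q-value. Pileup, q-value and presence in the shorter list are therefore not separate readouts.

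A few tall peaks stood apart from this body of small ones. The pileup was above 20 at 14 start-proximal peaks (5.07%, 3.05 to 8.33%) and at 2.91% of the others, and the remaining 262 did not exceed 11. Of the 14, 9 lay at genes whose description or KEGG entry names a product that plastid genomes encode. Their best hits did not carry the bracketed mark by which organelle-genome records were dropped, although that of GH_A12G0231 names the chloroplast. With 1 lower peak they make 10 organelle-type loci (3.62%, 1.98 to 6.54%), against 1.94% of the other peaks. These held 36.8% of the summed pileup of the window. Such loci held 27.8% in the other peaks and 29.0% over all 2134 peaks. The recovered background under the 14 tall peaks ran from 3.31 to 105 fragments, so that only 7 of them had a fold of 5 or more.

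The strongest peak of the window by fold belonged to GH_A05G3166 on chromosome A05 (44651420 to 44651642), described as the large chain of Rubisco, the carbon-fixing enzyme, with a pileup of 178 over a background of 21.9 and a fold of 7.81. Next came a group on chromosome A13. GH_A13G1008 carries the KEGG entry of the photosystem II protein CP47 and had a pileup of 36 and a fold of 7.67 at 265 bp. GH_A13G1009, with the KEGG entry of ribosomal protein S11, had 45 and 7.55 at 129 bp. GH_A13G1011, described as ribosomal protein S3 of the bacterial and plastid type, had 24 and 5.47 at 275 bp. The 3 peaks lay within 11.9 kb (45113868 to 45125774). On chromosome A12 a second pair, GH_A12G0231 and GH_A12G0232, lay within 1.69 kb.

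Height and enrichment came apart at these loci. The tallest peak of the window, 218 fragments at GH_D08G1322 (ribosomal protein S14), had a background of 105 and a fold of 2.07. GH_A12G0231, a ribosomal protein L14 locus whose peak contained its start site, had 132 fragments over 99.4 and the lowest fold of the window, 1.32. GH_D09G0495, described as an NAD(P)H-quinone oxidoreductase subunit H, showed the reverse, with 11 fragments over 0.871 and a fold of 6.41. The high background moves with these descriptions, and its part in the pileups was not tested.

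**Figure D3:**
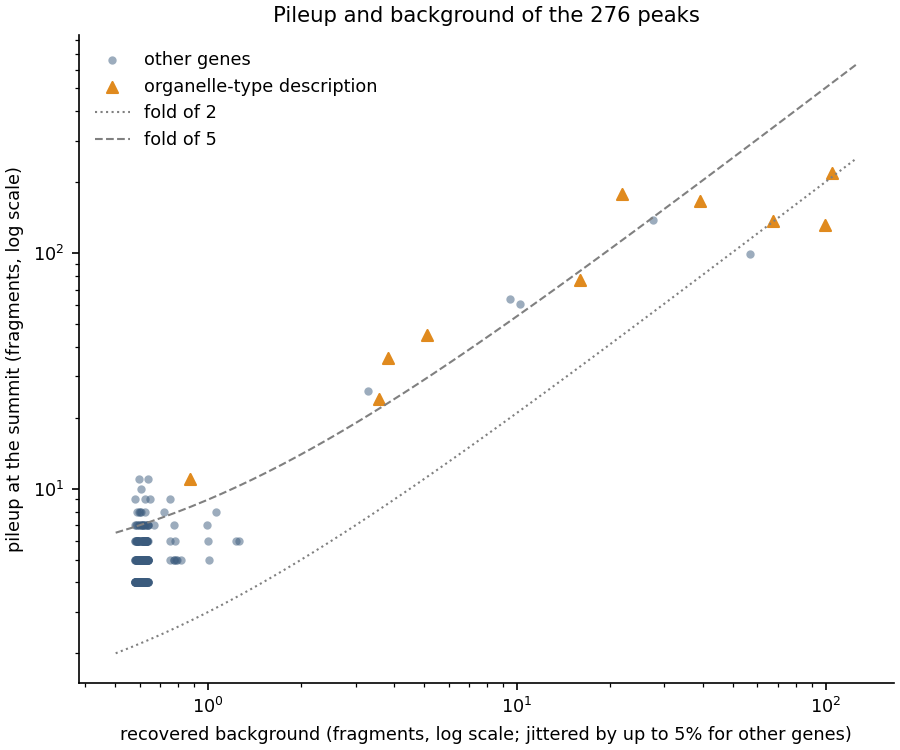
Each point is 1 of the 276 peaks, with the recovered background (fragments, log scale) on the horizontal axis and the pileup in the IP library (fragments, log scale) on the vertical axis; triangles are organelle-type genes and the lines mark folds of 2 and 5. Most peaks form a column at the lowest background of 0.608, and the tall peaks extend along a band in which pileup and background rise together.

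The other 5 tall peaks lay at genes without an organelle-type description or KEGG entry. GH_A02G1473 has the KEGG entry of beta-tubulin, the subunit of microtubules, and had 26 fragments over 3.31 and a fold of 6.26. It was the only one of these 5 with a fold above 5 that the shorter list did not hold. GH_A13G1690, with the KEGG entry of the antioxidant enzyme monodehydroascorbate reductase, had 61 over 10.4 and a fold of 5.42. GH_A10G2059 is described as a subunit of mitochondrial complex I and had 138 over 27.5 and a fold of 4.87. The other two, GH_A03G1004 (64 fragments, fold 6.23) and GH_D04G1065 (99 fragments, fold 1.71), had no informative name.

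Away from the tall loci the highest folds came from peaks of 9 to 11 fragments at or near the lowest background. The unnamed genes GH_D13G2409 (D13, 62415729 to 62416034) and GH_D13G0626 (D13, 8233496 to 8233728) each had a pileup of 11 and a fold of 7.46, at 308 and 322 bp. GH_A03G1613, also unnamed, had 10 fragments and 6.84 at 492 bp, and a further peak of 4 fragments at 1017 bp. GH_D02G2402, a GATA-type transcription factor gene, had 9 and 6.22, as did the unnamed GH_D08G0416. GH_A02G0932 encodes a lysine-tRNA ligase, which charges tRNA for protein synthesis, and had 9 fragments and a fold of 6.07 at 267 bp, with a further peak of 5 fragments at 698 bp. All but GH_A02G1473 of the 12 highest folds were also in the shorter list.

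The genes behind the peaks covered a wide range of functions. An informative description was counted for 150 of the 276 (54.3%), against 58.4% over the other peaks. The remaining 126, 13 of them with a KEGG entry, were counted as uncharacterised. In both groups the count took any description beginning with the letters NA as uninformative. Described genes such as GH_A10G2059 and GH_D09G0495 are therefore among the 126, and 150 is too low. The 22 word-based lists took in 125 genes. Over all 2080 genes, 13.3% (11.9 to 14.8%) had a start-proximal peak, and each list is read beside that share. Counts of a list's peaks in the shorter list are likewise to be read beside the 25.7% of the window and the 33.6% of all 2134 peaks. The interval of 4 lists lay above it (chromatin and DNA, translation, RNA processing, transposon-related) and of 0 below, with no test and no adjustment over the 22 lists.

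**Figure D4:**
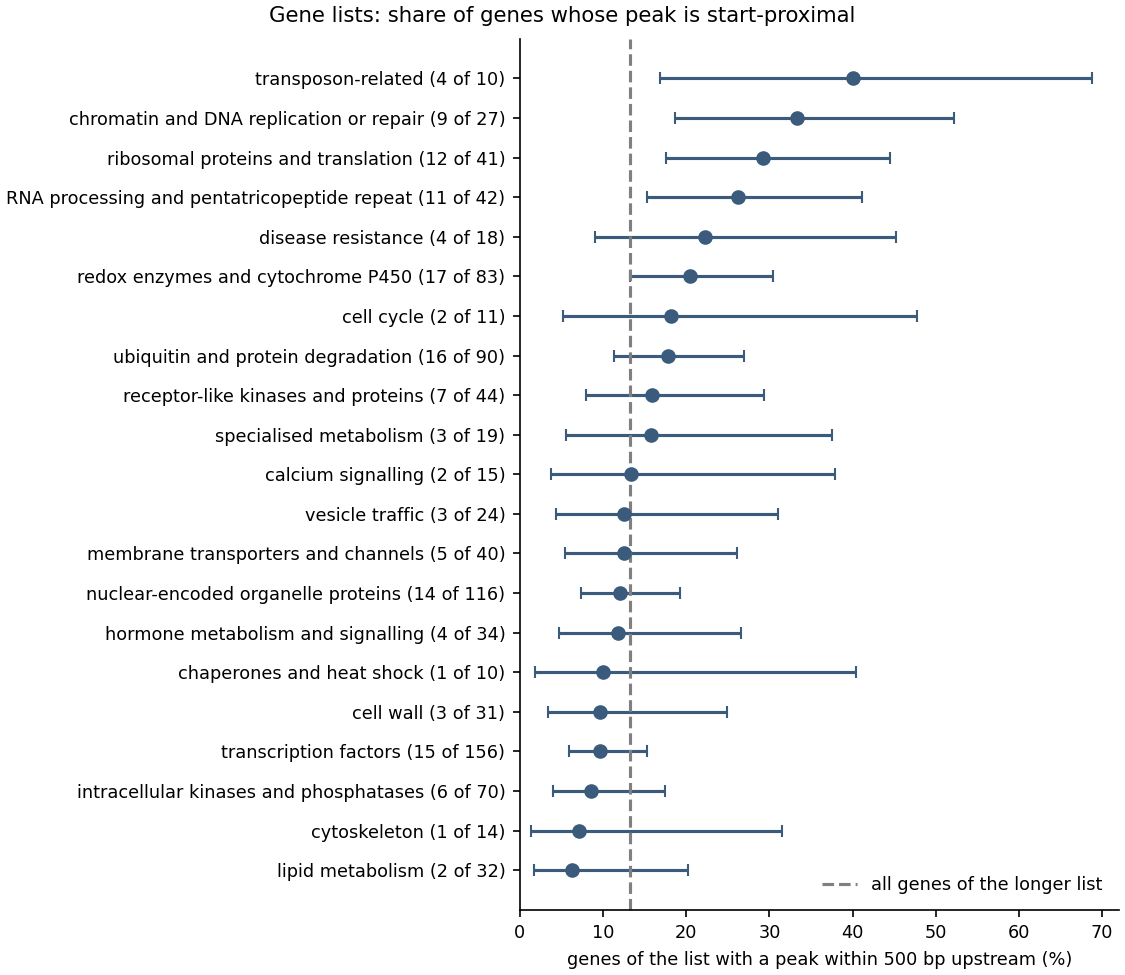
For the 21 lists with 10 or more genes in the longer list, points give the percentage of the list's genes whose peak lies within 500 bp upstream, bars give Wilson 95% intervals, and the dashed line marks the 13.3% of all 2080 genes. Shares run from 6.25% for lipid metabolism to 40.0% for the transposon-related list, most intervals cross the line, and the shortest lists have the widest intervals.

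For strigolactone and karrikin signalling the longer list held 2 genes, and 1 of them had a start-proximal peak. This was GH_A02G1790 on chromosome A02 (105503472 to 105503613), described as the esterase D14L, the D14-like receptor that perceives karrikins in Arabidopsis. Its peak centred 106 bp upstream, with 4 fragments and a fold of 3.11, the lowest pileup of the list, and was not in the shorter list. The corepressor gene GH_A08G2546, described as Topless-related 1, had 7 fragments and a fold of 4.98 at 469 bp on chromosome A08 (122292492 to 122292661), and its peak was in both lists. None of the named genes in the window was described as D53 or as a strigolactone repressor of its kind.

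Of the 34 genes of other hormones, 4 (11.8%, 4.67 to 26.6%) had a start-proximal peak. GH_A12G0283 is described as allene oxide synthase 3-like, with the KEGG entry of hydroperoxide dehydratase. Its peak of 7 fragments (fold 4.98) centred 47 bp upstream on chromosome A12 (4373136 to 4373346) and contained the start site. GH_A05G0098, annotated as a brassinosteroid receptor kinase, had 4 fragments and 3.11 at 104 bp. The remaining members were the ethylene-responsive factor GH_D11G0816 and the AP2-type gene GH_A04G0577, both given with the transcription factors. A gene outside the list, the unnamed GH_D05G1582, carries the KEGG entry of the abscisic acid receptor family PYR/PYL and had 5 fragments and 3.73 at 178 bp. It is an example only, since the list was drawn from words in descriptions and not from KEGG entries. The KEGG entries of ent-kaurenoic acid monooxygenase at GH_A08G1841 and of CTR1 at GH_A04G0838, both genes given below, did not count toward it either.

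Transcription factor genes numbered 15 among the 276, which is 9.62% (5.91 to 15.3%) of the 156 in the longer list. They belonged to many families, and 5 of them were also in the shorter list. The highest was GH_D02G2402, resembling GATA factor 5 of a zinc finger class tied to light and nitrogen responses, at 155 bp on chromosome D02 (68381758 to 68381931) with 9 fragments and 6.22. Peaks of 4 fragments (fold 3.11) were the lowest, at the leucine zipper gene GH_D03G1043 (HAT5-like, 387 bp) and the LOB-domain gene GH_D06G0218 (351 bp). The closest to its gene was that of GH_D07G1990, which resembles the floral organ factor SEPALLATA 1, with 5 fragments and 3.73 at 41 bp.

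A fold of 4.35 from 6 fragments was found at 4 transcription factor genes. These were GH_A07G0395 of the B3 class at 342 bp, the DOF factor GH_A07G0659 at 429 bp, the high mobility group and ARID protein GH_D13G1461 at 329 bp, and the ethylene-responsive GH_D11G0816 at 430 bp. GH_D12G2026, a TCP factor of the kind that restrains cell division in growing organs, had 7 fragments over a slightly higher background, giving 3.96 at 241 bp. The plant heat stress factor gene GH_D09G0866 had 5 fragments and 3.73 at 485 bp.

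The remaining transcription factor genes also had 5 fragments and a fold of 3.73. GH_A11G2044 resembles the floral homeotic factor APETALA 2 (189 bp), GH_A04G0577 is an AP2-type relative (425 bp), GH_D13G2043 has only its MADS family assignment (141 bp), and GH_D01G0152 resembles ODORANT1, a MYB factor that controls scent precursors in petunia (269 bp). GH_A07G1041 is a pseudo-response regulator of the circadian clock, APRR9 (258 bp). Another clock gene, GH_D08G0249, described as the blue-light receptor adagio 1, had 4 fragments and 3.11 at 428 bp. The BEL1-like homeodomain gene GH_D07G1212, which had no family assignment in the files, had 6 and 4.35 at 387 bp.

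**Figure D5:**
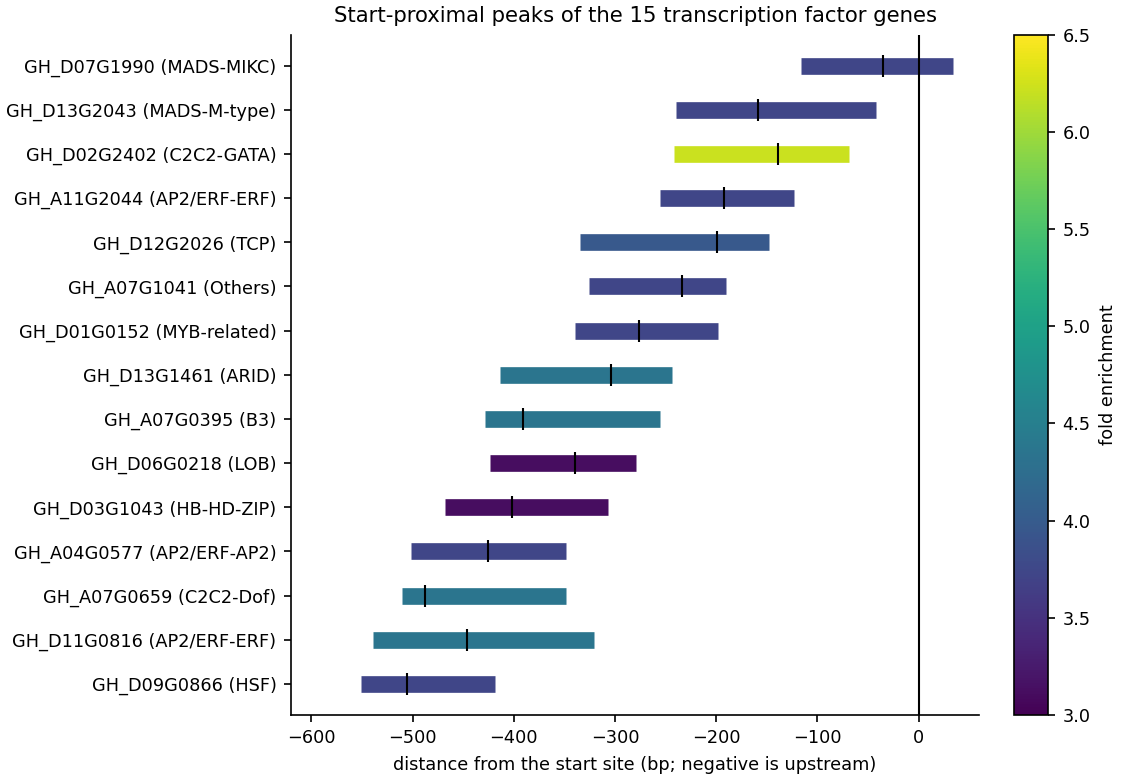
Bars show the extent of the peak at each of the 15 transcription factor genes along the distance from the start site (bp, negative upstream), black ticks mark the summits and colour gives the fold enrichment; families are those in the deposited annotation. Only the peak of GH_D07G1990 reaches across the start site, and GH_D02G2402 has the highest fold, 6.22.

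Genes of chromatin, DNA replication and repair had start-proximal peaks at 9 of 27 (33.3%, 18.6 to 52.2%), and 4 of these peaks were in both lists. Beside the Topless-related gene and GH_D13G1461 these included GH_A07G0590, encoding subunit 6 of the origin recognition complex that licenses replication, with 6 fragments and 4.35 at 389 bp. GH_A07G0859 (RAD4, which recognises DNA lesions for excision repair) and GH_A11G0833 (KU80, which binds broken DNA ends) had 5 fragments and 3.73 at 447 and 410 bp. Nearer to the start site, GH_A02G0298 (the histone-mark reader ING1) and GH_D11G1777 (the histone chaperone ASF1B) had the same height at 103 and 114 bp. The peak of GH_A02G0298 contained its start site.

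For ribosomal proteins and translation it was 12 of 41 genes (29.3%, 17.6 to 44.5%), but 6 of the 12 were organelle-type loci. The cytosolic members were, besides the lysine-tRNA ligase, the genes of elongation factor 2 (GH_A11G3320, 259 bp), initiation factor 3 subunit M (GH_A05G4016, 278 bp) and the ribosomal proteins L9 (GH_A08G1298, 200 bp) and S10 (GH_A03G0303, 176 bp), each with 5 fragments and 3.73. Among the organelle-type members, GH_D02G1279 (S3) had 77 fragments and 4.58 at 50 bp and GH_A12G0232 (S11) 166 and 4.16 at 373 bp.

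RNA processing and pentatricopeptide repeat genes contributed 11 of 42 (26.2%, 15.3 to 41.1%), 2 of them with a peak in both lists. GH_D09G1131, a relative of RNA terminal phosphate cyclase that acts in ribosome assembly, had 7 fragments and 4.98 at 478 bp. Pentatricopeptide repeat proteins, which bind organelle transcripts, were represented by GH_D12G0466 (275 bp) and GH_D05G3597 (410 bp), both with 6 and 4.35. Splicing and 3' end formation were represented by GH_D07G1695 (LSM5, 398 bp) and GH_A04G0838 (a cleavage and polyadenylation factor, 251 bp), both with 5 and 3.73.

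The ubiquitin and protein degradation list had 16 of 90 genes in the window (17.8%, 11.2 to 26.9%), a share whose interval includes that of all genes. Of the 16 peaks, 6 had only 4 fragments and 3 were in the shorter list. The peptidase genes GH_D13G2151 (aminopeptidase M1, 216 bp) and GH_D06G0099 (leishmanolysin-like, 431 bp) had 8 fragments and 5.60 each. E3 ligases, the enzymes that choose proteins for ubiquitin tagging, were also among the 16. GH_D03G0172 (RNF185-like) had 6 and 4.35 at 319 bp, while GH_D13G1979 (ATL6-like, 310 bp) and the U-box protein gene GH_D10G2140 (297 bp) had 5 and 3.73. GH_D05G3341, coding for an RHA2A-like ligase, had 6 fragments over a higher background and a fold of 3.08 at 96 bp.

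Receptor-like kinases and proteins at the cell surface were in the window at 7 of 44 genes (15.9%, 7.93 to 29.4%), 4 of which were in the shorter list. GH_D07G2290, a leucine-rich repeat receptor kinase, had 8 fragments and 5.60 at 72 bp on chromosome D07 (54599931 to 54600080), and the peak contained the start site. GH_D06G1404 and GH_D10G2176 had 6 and 4.35 at 289 and 315 bp, and the lectin receptor kinase GH_A11G2201 had 5 and 3.40 at 135 bp. Intracellular disease resistance genes gave 4 of 18 (22.2%, 9.00 to 45.2%). Of these GH_A03G0168 had 5 fragments and 3.73 at 249 bp, and GH_A10G0248, GH_D11G3652 and GH_A11G3396 had 4 and 3.11 at 240, 301 and 331 bp.

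Intracellular kinases and phosphatases had one of the lower shares, 6 of 70 (8.57%, 3.99 to 17.5%). GH_D10G1838 and GH_D09G0575, which share the best hit of a myotonin-type kinase, had 7 fragments (4.98) and 5 fragments (3.73) at 282 and 241 bp. GH_A06G1032, described as a phosphatase 7 long form homolog, had 6 and 4.35 at 375 bp. Its KEGG entry names a different enzyme, UDP-arabinose 4-epimerase. Both members of the calcium list, 2 of 15 genes, were calcium-dependent kinases, GH_A06G0009 (256 bp, 3.34) and GH_A02G0160 (428 bp, 3.11). The gene of the growth regulator TOR kinase, GH_A01G0107, had 4 fragments and 3.11 at 437 bp.

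Fiber cells elongate by loosening and extending their wall, and the cell wall list gave 3 of 31 genes (9.68%, 3.35 to 24.9%). GH_D01G1164 (a beta-galactosidase) had 7 fragments and 4.98 at 459 bp, and GH_A11G1186 (a pectinesterase, which changes pectin stiffness) had 8 over a higher background and 4.46 at 416 bp. GH_D02G1499, a xyloglucan endotransglucosylase that cuts and rejoins wall polymers, had 6 and 4.35 at 395 bp. The cytoskeleton list gave 1 of 14, the actin-binding cyclase-associated protein GH_D02G2357 with 6 and 4.35 at 201 bp. Vesicle traffic gave 3 of 24, namely GH_A06G0573 (synaptotagmin-like, 6 and 4.35 at 162 bp) and GH_D10G2692 (syntaxin) and GH_A05G3615 (taxilin), both with 4 and 3.11.

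Cell cycle genes contributed 2 of 11, the cyclin H gene GH_A13G0411 with 6 fragments and 4.35 at 438 bp, and the cyclin D1 gene GH_D11G2174 with 4 and 3.11 at 479 bp. The chaperone list gave 1 of 10, the disaggregase gene GH_D07G0761 (ClpB1) with 6 and 4.35 at 418 bp. Membrane transporters gave 5 of 40 (12.5%, 5.46 to 26.1%). GH_A12G1917, a phospholipid-flipping ATPase, had 8 and 5.60 at 442 bp, and the multidrug exporter GH_D04G0899 had 6 and 4.35 at 264 bp. GH_A10G1554 and GH_D13G0853, permeases for purines and ureides, had 5 and 3.73, and GH_D02G1745 (DETOXIFICATION 29) had 4 and 3.11.

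Redox enzymes and cytochrome P450 proteins formed the longest list in the window, 17 of 83 genes (20.5%, 13.2 to 30.4%), with 6 peaks in both lists. Apart from GH_D09G0495 and GH_A10G2059, given above, GH_A02G0292 (a glutathione transferase) and GH_A07G1731 (a P450 of family 82) had 7 fragments and 4.98 at 466 and 395 bp. GH_A13G0085, a quinone oxidoreductase relative, had 6 and 4.35 at 302 bp. Catalase, which removes hydrogen peroxide, had a peak of 4 fragments at GH_D03G0024 that contained the start site (53 bp, fold 3.11).

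Lipid metabolism had the lowest share, 2 of 32 (6.25%, 1.73 to 20.1%), with the lipase gene GH_A12G0200 (4 fragments, 3.11, 184 bp) beside the allene oxide synthase. Specialised metabolism gave 3 of 19, all with 5 fragments and 3.73, at GH_D06G2351 (polyphenol oxidase, 105 bp), GH_D05G3357 (a glycosyltransferase, 119 bp) and GH_A08G1841 (a triterpene oxidase, 451 bp). The word-based list meant for nuclear genes of proteins sent to plastids or mitochondria gave 14 of 116 (12.1%, 7.33 to 19.2%), a share near that of all genes. Of the 14, 1 was an organelle-type locus, GH_D09G0495. Among the others were GH_A07G1151, whose pheophorbide a oxygenase breaks down chlorophyll, and GH_D04G1417, an uncharacterised plastid protein family member, both with 6 and 4.35 at 402 and 340 bp. The transposon-related list had 4 of 10, which were the HARBI1-type nuclease gene GH_A11G2351 (6 and 4.35, 372 bp) and GH_A12G1373 (a TNT 1-94 polyprotein, 6 and 3.97, 355 bp), with 2 reverse transcriptase genes, GH_D09G0718 and GH_D03G1309, at 5 and 3.73.

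A start-proximal peak was rarely accompanied by another at the same gene. It was at 10 of the 276 genes, and 4 of these 10 were organelle-type. The longer list without organelle-genome hits had 2134 peaks at 2080 genes, so genes with a further peak were few there as well. The low count is therefore not particular to the window. At GH_A07G1596 the start-proximal peak at 386 bp had a fold of 3.40 and the other at 1515 bp a fold of 5.60, and at GH_A05G3050 the values were 3.11 at 108 bp and 4.98 at 1630 bp. The P450 gene GH_A12G1650 had equal folds of 4.35 at 395 and 1549 bp. At GH_A02G0932 and GH_A03G1613, given above, the start-proximal peak had the larger pileup.

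Upland cotton is an allotetraploid with subgenomes A and D, and most of its genes have a homoeologous partner. The A chromosomes had 131 of the peaks and the D chromosomes 144, with 1 on a scaffold, an A share of 47.6% (41.8 to 53.5%) where the other peaks had 49.8%. All 26 chromosomes were represented, with 5 peaks on D03 and 17 each on D05 and D08 at the extremes. No pair of A and D genes, matched by chromosome number and description, had a start-proximal peak at both. Such a match does not establish that the genes are homoeologous, and a partner on a chromosome of another number would be missed. For 3 of the 150 named genes a gene matched in this way had a peak elsewhere in the longer list. These were the ribosomal S10 gene GH_A03G0303 with GH_D03G1672 (1300 bp), the resistance gene GH_A11G3396 with GH_D11G3406 (1488 bp), and GH_D13G2151 with the other aminopeptidase gene GH_A13G2169, whose peak lay 3 bp inside the gene.

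Some members had the same best protein hit as another member. There were 5 such groups, 11 genes in all. GH_A06G2013 and GH_D11G3635, on different chromosomes, both had 5 fragments centred 248 bp upstream. GH_A12G2252, GH_D01G2154 and GH_D08G0734 had 7, 6 and 5 fragments at 282, 205 and 406 bp. GH_A04G1620 and GH_D10G0624 had peaks at 27 and 462 bp, while 4 more genes with that hit had theirs between 742 and 767 bp and so fell outside the window. How alike the sequences of these 11 genes are, and whether reads could be placed on a single gene of a group, was not examined here.

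Most peaks were annotated to a single gene. Besides the 257 peaks annotated to 1 gene, 18 were annotated to 2 and 1 to more than 2, together 6.88% (4.45 to 10.5%) against 3.39% of the other peaks (2.66 to 4.31%). In the peaks 1500 to 2000 bp upstream it was 0.766% (0.327 to 1.78%). The distance of each peak was that to a single gene, also where several were annotated, and the part of this in the shares was not tested. The gene models were a median of 1381 bp long (interval of the median 1150 to 1663) and those of the other peaks 1680 bp (1555 to 1794). Among genes with a Gene Ontology term in the deposited annotation, 128 of 896 (14.3%, 12.1 to 16.7%) were start-proximal. Of 20 terms picked after counts were seen, 17 had an interval that included this share and 0 one below it. The 3 with an interval above it were mitotic cell cycle (5 of 15, 33.3%, 15.2 to 58.3%), ubiquitin-protein transferase activity (11 of 36, 30.6%, 18.0 to 46.9%) and proteolysis (16 of 61, 26.2%, 16.8 to 38.4%), with no test. The word-based ubiquitin and protein degradation list, given above, had 17.8%.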

How the data were processed

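DNA affinity purification sequencing of cotton fiber DNA gave 1 purified and 1 input library, grouped by the fraction in the labels. The authors deposited 2 promoter peak lists. Per the file headers, these give for every peak the signal stacked at its summit (pileup), the ratio to background (fold enrichment), and the −log10 of the p-value and of the q-value. BWA, deepTools 2.5.4 and ChIPseeker are named in the submitters' processing notes. Peak caller, thresholds and genome build were not given in the sources used here. The setting that separates both lists is unknown. Coordinates are printed as deposited. Library totals were not used, so depth is described by pileup. A genome was not used here, and sequences and motifs were not analysed here.

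With Python 3.11.15, pandas 2.3.3, numpy 2.4.6 and SciPy 1.17.1, the background was recovered as (pileup + 1) / fold − 1. Peaks of both lists were matched by an overlap of 1 bp. Shares have Wilson 95% intervals, medians have 95% intervals from order statistics, and pileups have exact Poisson intervals, which cover counting error only; PCR copies are not independent molecules. The steps were tested on simulated data. Organelle-type loci were set by 3 rules. The description named a plastid-encoded product, or the KEGG entry did so at a gene without an informative description. The last rule was a best hit from Staphylococcus, Escherichia, Bacillus, Pseudomonas or Klebsiella. Genes in the window described as 30S ribosomal proteins entered by this last rule.

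The genes in the window, the 22 word-based lists and the wording of organelle-type loci were chosen with earlier results of these data known, and words were adjusted after descriptions were read. Genes named were the 12 highest folds, the 12 nearest with an informative description, every strigolactone, hormone and transcription factor gene, and up to 5 per other list by fold. Other genes named were chosen after their values were seen. The alternatives tried were other q limits, the shorter list, windows of 250 and 1000 bp, summits or genes in place of centres or peaks, and other rules for organelle hits.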

Additional observations from a re-analysis of the deposited data

How the results depend on the processing

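Of 52 combinations of a result and an alternative setting, 40 left the value within its limits and 12 moved it. The limits were 1.5 times the count for a number of peaks and the 95% interval for a share or median; within them, the number of peaks was 196 at a q-value of 0.05 or lower. With a q-value of 1e-05 or lower, 19 peaks remained in the window, with a median fold of 6.22, 89.5% of them in the shorter list. The share on the A subgenome was then 57.9% (36.3 to 76.9%) in place of 47.6%. That interval, from 19 peaks, includes 47.6%. With a q-value of 0.05 or lower, 36.2% were in the shorter list. In the shorter list on its own, 74 peaks lay in the window, with a median fold of 4.41, and 100% had a q-value of 0.05 or lower. A window of 250 bp held 88 peaks, 17.0% of them in the shorter list and 64.8% with a q-value of 0.05 or lower, and a window of 1000 bp held 800. Each of these settings selects other peaks, and the cause of the moves was not tested. Using summits, genes, promoter annotation only, a 50% reciprocal overlap or a wider exclusion of organelle-type genes moved none of the 6 results beyond these limits. No paired analysis was possible because each fraction had 1 library and no test was made. Pileups of 4 to 8 fragments limit what a single peak can show.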

Other observations

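The 14 peaks of the window left out for best hits marked as organelle genome had a higher median pileup than those kept. Their pileups ran from 5 to 504 with a median of 136.5, their background had a median of 54.9 fragments and their fold a median of 2.59, and 11 were in the shorter list. The highest fold among them was 13.6, at GH_D02G1277 (ribosomal protein S11) from 244 fragments centred 88 bp upstream. The lowest pileup, 5 with a fold of 3.73, was at GH_A04G0636.

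On the gene side of the start site, 17 peaks had their centre 0 to 500 bp downstream. Of these, 4 were organelle-genome hits of the kind dropped from the window. The remaining 13 included 2 at organelle-type loci, and 3 of the 13 were in the shorter list. The 11 that were neither had pileups of 8 or lower. GH_D07G2512, a calmodulin-like gene (CML23) of calcium sensing, had 4 fragments and a fold of 3.11 at 471 bp. Only 2 of the 13 had the promoter of that same gene as their annotation, so the deposited lists, which are limited to promoters, do not show how peaks are spread inside genes.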
